A study of Mus musculus with 6 samples.

Results

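The genes that encode the CtBP corepressors and the proteins that work with them are themselves places where a CtBP-binding factor can sit, and the ChIP-seq of KLF3 in murine embryonic fibroblasts (MEFs) allows this to be read gene by gene. The set holds 10 genes, chosen by name: Ctbp1, Ctbp2, Fhl3, Fhl2, Hipk2, Kdm1a, Rcor1, Hdac1, Hdac2 and Zeb1. Their peaks are the rows of the table of all peaks that carry one of these gene names, which are 17 of the table's 22188 peaks and fall at 8 of the 10 genes. Kdm1a and Hdac1 had no peak in that table, and their values come from the replicate peak lists alone.

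All cells came from C57BL/6 Klf3-/- MEFs, so no line carried endogenous KLF3. They were rescued by MSCV retrovirus with one of 3 V5-tagged constructs, full-length KLF3 (Klf3-V5), ΔDL (ΔDL-V5) or DBD (DBD-V5). In ΔDL an alanine and a serine stand in place of the aspartate and leucine of the PVDLT motif through which KLF3 contacts CtBP. DBD keeps the zinc fingers and a putative nuclear localization sequence, and lacks the rest of the N-terminal domain. The cells were stable clones picked after selection, so a construct and the clone that carries it cannot be told apart. Immunoprecipitation with an anti-V5 antibody was done in duplicate for each construct, and the sources used here do not say whether the duplicates were separate cultures. Expression was not measured in these files, so the fibroblast identity of the cells could not be checked against marker genes.

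KLF3 is a Krüppel-like factor that binds CACCC and related GC-rich boxes and is best known as a repressor. CtBP1 and CtBP2 are paralogous corepressors that dimerize with bound NAD(H), dock on PXDLS-type motifs such as PVDLT, and bring histone-modifying enzymes to the promoter. The core of that assembly is the demethylase KDM1A (LSD1), its scaffold RCOR1 (CoREST) and the deacetylases HDAC1 and HDAC2. FHL2 and FHL3 are LIM-only adaptor proteins, of which FHL3 binds both KLF3 and CtBP2. HIPK2 is a nuclear kinase that phosphorylates CtBP, and ZEB1 is a zinc finger and homeodomain repressor that recruits CtBP to E-boxes.

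The sequences below are those on which the comparisons turn. Each is the 100 bp at the centre of a peak, read from the plus strand of mm9, 5′ to 3′, and capitals mark a core. A core is ACACCC or ACGCCC, or it is CCACCC or CCGCCC, on either strand, so that capitals starting with GGG are a core read from the minus strand. The last form, CCGCCC, is at the same time the GC-box of SP factors. The first pair lies at Ctbp1, the next pair at Ctbp2, and then follow the peak inside Fhl3 and the distal Fhl2 peak that was also listed for ΔDL. The last pair shows peaks that were not listed for KLF3, at Rcor1 and Hdac2.
Ctbp1 promoter, 59 bp upstream, chr5:33617663-33617762: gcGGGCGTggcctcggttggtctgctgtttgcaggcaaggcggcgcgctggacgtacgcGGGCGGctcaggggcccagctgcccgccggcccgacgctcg
Ctbp1 intron 1, chr5:33616745-33616844: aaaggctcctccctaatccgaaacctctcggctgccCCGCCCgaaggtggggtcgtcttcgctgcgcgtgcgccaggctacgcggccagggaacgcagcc
Ctbp2 promoter, 527 bp upstream, chr7:140315644-140315743: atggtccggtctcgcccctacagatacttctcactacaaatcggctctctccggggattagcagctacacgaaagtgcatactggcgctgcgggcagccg
Ctbp2 intron 1, chr7:140314512-140314611: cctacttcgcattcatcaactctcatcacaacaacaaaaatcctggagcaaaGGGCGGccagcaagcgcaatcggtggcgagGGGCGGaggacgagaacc
Fhl3 intron 1, chr4:124380727-124380826: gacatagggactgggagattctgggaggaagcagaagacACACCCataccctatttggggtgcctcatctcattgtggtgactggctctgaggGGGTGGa
Fhl2 distal, chr1:43281241-43281340: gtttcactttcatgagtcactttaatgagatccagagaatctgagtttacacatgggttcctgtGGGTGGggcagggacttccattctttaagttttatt
Rcor1 intron 2, chr12:112286068-112286167: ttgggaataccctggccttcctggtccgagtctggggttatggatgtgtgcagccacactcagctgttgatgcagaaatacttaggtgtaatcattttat
Hdac2 distal, chr10:36745382-36745481: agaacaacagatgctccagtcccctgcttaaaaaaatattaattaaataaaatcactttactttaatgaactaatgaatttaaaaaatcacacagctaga

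A core stood in the central 100 bp of 10 of the 17 member peaks, against 40.2% of all peaks of the table. The 10 were all among the 13 peaks listed for KLF3, where the share over the whole table was 57.6%. None of the 4 other member peaks, 2 at Hdac2 and 1 each at Rcor1 and Ctbp2, held one, and the share over all peaks not listed for KLF3 was 9.88%. With only ACACCC and CCACCC counted, 6 member peaks had a core, and the share over all peaks is not given for this narrower count. In flanking windows of 100 bp centred 450 bp to the side, 4 of the 17 member peaks held a core, against 16.7% of all peaks. A core is present by its letters only and need not be the place of contact. The Ctbp2 promoter peak, printed above without a capital, was among the highest KLF3 peaks of the set.

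The letters TGANTCA, with N any base, lay in the central 200 bp of 4 member peaks. These were the Fhl2 peaks in intron 2 and 60484 bp upstream, and both Hipk2 peaks, of which the upstream peak held 2 copies and no core. The AP-1 motif of FOS and JUN dimers has C or G at N. At the Hipk2 intron 1 peak the match reads TGATTCA, with T at N, so the letters there are not that motif. The share of all peaks with TGANTCA in this window was 16.2%. The ETS letters CCGGAA, also searched on both strands, were in this window of no member peak and of 7.74% of all peaks.

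The peak height is the number of tags in 400 bp around the peak centre, counted in both replicates of a construct together and normalized to 100 M tags. The combined totals were 23.3 M tags (KLF3), 11.8 M (ΔDL) and 16.0 M (DBD), so that 1 tag was worth 4.29, 8.45 and 6.23 normalized tags. Uniform coverage of the genome would give 15.1 normalized tags in such a window. Because replicate 2 supplied 85.3% of the ΔDL tags and 76.8% of the KLF3 tags, a height mostly describes that replicate, and it carries no replicate error of its own. In its place many of the deposited ratios are given with an exact binomial 95% interval, which covers counting error only. Scaled values and some other ratios are printed without an interval. At the KLF3-listed member peaks the DBD heights rest on 2 to 11 tags. Since that normalization puts each construct on the same total, values are also given after scaling to common peaks, in which the medians over the peaks listed for all 3 constructs were made equal. A listed peak is one that the authors called in both replicates of that construct with overlapping intervals.

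The highest KLF3 peaks of the set lay at Ctbp1, the first of the CtBP genes. In intron 1, 859 bp downstream of the transcription start site (TSS), at chr5:33616594-33616994, the KLF3 height was 396 normalized tags, the ΔDL height 309 and the DBD height 55.3. In the promoter, 59 bp upstream of the TSS, at chr5:33617512-33617912, KLF3 reached 380, ΔDL 141 and DBD 29.4. KLF3 was highest and DBD lowest at both. As deposited and after scaling, ΔDL was closer to KLF3 in the intron than in the promoter. On the log2 scale ΔDL minus KLF3 was -0.36 (interval -0.97 to 0.20) in the intron as deposited. In the promoter it was -1.43 (interval -2.35 to -0.70), where 88 KLF3 tags stood against 16 of ΔDL. The intervals of the intron and the promoter overlap, and the difference between the peaks was not tested. After scaling the values were -1.42 in the intron and -2.49 in the promoter. Both KLF3 replicates called both peaks, with 22 and 39 tags in the promoter and 12 and 36 in the intron. ΔDL replicate 2 called them with 11 and 17 tags, and ΔDL replicate 1 and both DBD replicates called neither.

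Ctbp2, the paralogue, had 3 peaks in the table. A GENCODE gene model named Fgfr2 also spans the 2 intron peaks, and the assignment to Ctbp2 is that of the authors' annotation. Its promoter peak, 527 bp upstream at chr7:140315493-140315893, had heights of 324 (KLF3), 190 (ΔDL) and 27.5 (DBD). The intron 1 peak, 605 bp downstream at chr7:140314361-140314761, had 254 (KLF3), 26.7 (ΔDL) and 18.4 (DBD). Here ΔDL was nearly as low as DBD, with 3 tags against 59 of KLF3, a log2 difference of -3.25 (interval -5.64 to -1.70). That was the lowest ΔDL value of the set, and the promoter peak differed by -0.77 (interval -1.55 to -0.09). After scaling the values were -4.31 at this intron peak and -1.83 in the promoter. No list of ΔDL or DBD held the intron peak, which KLF3 replicates 1 and 2 called with 12 and 26 tags. A further intron 1 peak, 3415 bp downstream at chr7:140311551-140311951, was listed for ΔDL alone, with heights of 113 (KLF3), 119 (ΔDL) and 104 (DBD). The 3 constructs lay within their counting intervals of each other there, with ΔDL minus KLF3 at 0.07 (interval -1.11 to 0.99) as deposited and -0.99 after scaling to common peaks. It held no core in its central 100 bp and had 40.3% G+C.

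**Figure D1:**
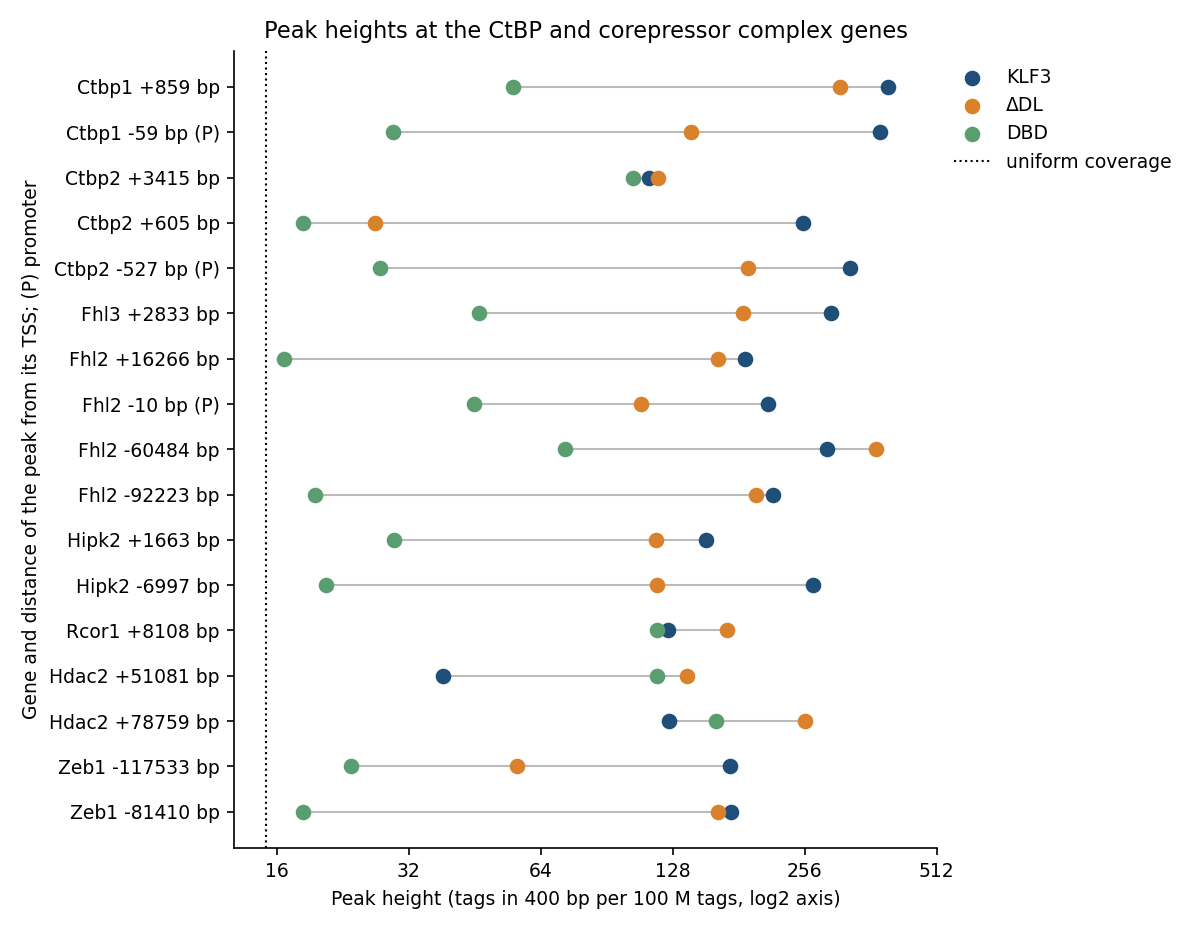
Peak heights (tags in 400 bp per 100 M tags, log2 axis) of the 17 member peaks for KLF3, ΔDL and DBD, 1 point per construct with both replicates combined, no error bar. The dotted line is uniform coverage at 15.1; DBD lies leftmost in the 13 peaks listed for KLF3, between 16.6 and 72.5, and the points lie closer together at Rcor1 and at the Ctbp2 peak 3415 bp downstream.

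The FHL genes code for the LIM-only adaptors. Fhl3 had 1 peak in the table, in intron 1 at chr4:124380576-124380976 and 2833 bp downstream, with 294 (KLF3), 185 (ΔDL) and 46.2 (DBD) normalized tags. KLF3 called it with 12 and 35 tags and ΔDL replicate 2 with 12, and the ΔDL difference was -0.67 (interval -1.50 to 0.01). The Fhl3 promoter was called in both KLF3 replicates as well, with 11 tags at chr4:124377898-124378020 and 24 tags at chr4:124377675-124377817. These intervals do not overlap, so the promoter of Fhl3 is missing from the table although each KLF3 replicate has a peak within it. No ΔDL or DBD list held a promoter peak there.

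Fhl2 had the most peaks, 4 in the table. The promoter peak, 10 bp upstream at chr1:43220616-43221016, had 211 (KLF3), 108 (ΔDL) and 44.9 (DBD) normalized tags. Of the others, the peak in intron 2 stood at 187, 162 and 16.6, and the peak 92223 bp upstream at 217, 198 and 19.6. KLF3 and ΔDL were close at both of these as deposited, with differences of -0.21 and -0.13 that were -1.27 and -1.19 after scaling, while DBD was near uniform coverage. The peak 60484 bp upstream, at chr1:43281090-43281490, was the only member peak listed for both KLF3 and ΔDL, with 288 (KLF3), 372 (ΔDL) and 72.5 (DBD). All KLF3 and ΔDL lists held it, with 20 and 33 tags in KLF3 and 5 and 24 in ΔDL. ΔDL minus KLF3 was 0.37 there (interval -0.23 to 0.94), which turned to -0.69 after scaling to common peaks. In the promoter it was -0.96 (interval -2.07 to -0.09) as deposited and -2.02 after scaling. KLF3 alone called the promoter, with 9 and 23 tags.

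Hipk2, the kinase gene, had an intron 1 peak 1663 bp downstream, with 152 (KLF3), 117 (ΔDL) and 29.7 (DBD) normalized tags. A higher peak lay 6997 bp upstream at chr6:38832986-38833386, with 267, 118 and 20.7 in the same order. In the GENCODE annotation this interval lies inside Tbxas1, the thromboxane synthase gene, so its assignment to Hipk2 rests on the nearest start site. ΔDL minus KLF3 was -0.38 (interval -1.49 to 0.50) in the intron and -1.18 (interval -2.26 to -0.40) upstream. No ΔDL or DBD list held any peak at Hipk2. KLF3 replicate 2 held 7 peaks at the gene. Among them were promoter peaks of 18 and 13 tags at 138 and 545 bp upstream, neither of which replicate 1 called. Both replicates called the table peaks, with 9 and 30 tags upstream and 7 and 15 in the intron.

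None of the 4 genes of the KDM1A, RCOR1 and HDAC core had a table peak listed for KLF3, which needs a call in both replicates, although each had a peak called by at least 1 KLF3 replicate, in the promoter for Kdm1a, Rcor1 and Hdac1. The difference from the other genes was not tested. Kdm1a had no table peak. Its promoter was called by KLF3 replicate 1, with 8 tags 46 bp upstream, and KLF3 replicate 2 called 13 tags 597 bp downstream. A pair of intron 2 sites, 18758 and 17118 bp downstream, were each called by DBD replicate 1, with 12 and 8 tags, and by 1 ΔDL replicate, with 5 and 10 tags. The second of these overlaps a B2 repeat, and the mappability of such sites was not tested. Hdac1 had a KLF3 replicate 2 peak of 21 tags 106 bp upstream and a ΔDL replicate 2 peak of 9 tags 583 bp upstream, and no other peak in any list.

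Rcor1 had 1 peak in the table, in intron 2 at chr12:112285917-112286317 and 8108 bp downstream, listed for ΔDL and DBD. It was the only member peak listed for DBD. Heights were 125 (KLF3), 170 (ΔDL) and 118 (DBD), and 5 of the 6 replicate lists held it, with 6 and 9 tags in ΔDL and 7 and 8 in DBD. Of the KLF3 replicates, the second called it with 15 tags, so its absence from the KLF3 list rests on replicate 1. DBD minus KLF3 was -0.08 (interval -1.04 to 0.81), and ΔDL minus KLF3 was 0.45 (interval -0.41 to 1.37) as deposited and -0.61 after scaling. In the Rcor1 promoter, KLF3 replicate 2 called 26 tags 962 bp upstream and 23 tags 560 bp upstream, and ΔDL replicate 2 called 9 tags at the second.

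Hdac2 had the only table peaks of the set at which ΔDL exceeded KLF3 by 2-fold or more. At chr10:36745231-36745631, which is 51081 bp downstream of the TSS and past the end of the gene, the heights were 38.3 (KLF3), 138 (ΔDL) and 118 (DBD). KLF3 was the lowest construct there, whereas it was the highest at Ctbp1. ΔDL minus KLF3 was 1.85 (interval 0.67 to 3.41), from 8 KLF3 and 16 ΔDL tags, and 0.79 after scaling. DBD minus KLF3 was 1.62 (interval 0.44 to 3.12), although neither DBD replicate called the peak. ΔDL replicates called it with 6 and 12 tags, and a low-complexity AT-rich stretch lies within it. At the other peak, 78759 bp downstream at chr10:36772909-36773309 in an L1 repeat, the heights were 125 (KLF3), 256 (ΔDL) and 161 (DBD). The ΔDL difference of 1.03 (interval 0.24 to 1.82) came to -0.03 after scaling. KLF3 replicate 1 called this peak with 12 tags and DBD replicate 1 with 9, and ΔDL called it with 9 and 17. The KLF3 replicate 1 score of 220 tags per 100 M stood between the ΔDL scores of 510 and 166. No list held a peak in the Hdac2 promoter.

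The table peaks named for Zeb1 lay 117533 and 81410 bp upstream on chromosome 18. The farther one had 172 (KLF3), 56.5 (ΔDL) and 23.6 (DBD) normalized tags, and KLF3 called it with 9 and 18 tags. The nearer one, which the annotation places in an intron of the non-coding RNA gene Gm10125, had 174, 162 and 18.4. As deposited, ΔDL was near KLF3 at the nearer site, with a difference of -0.10 (interval -0.97 to 0.73). It was lower at the other, with -1.61 (interval -3.25 to -0.47). After scaling the differences were -1.16 at the nearer site and -2.67 at the farther one.

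Ordered by KLF3 height, the set ran from the Ctbp1 intron and promoter through the Ctbp2 promoter, Fhl3, the distal Fhl2 peak and the upstream Hipk2 peak down to the Hdac2 peak 51081 bp downstream. Neighbours in this order had overlapping 95% Poisson intervals throughout, with 1 exception. The lowest Hdac2 peak, at 38.3 (14.8 to 67.6), lay below the next, the Ctbp2 peak at 113 (72.8 to 163). The promoter peaks of Ctbp1, Ctbp2 and Fhl2 had a median KLF3 height of 324, and so did the 4259 KLF3-listed promoter peaks of the table, at 324. Over the 13 KLF3-listed member peaks the median was 254, against 241 over the 14115 KLF3-listed peaks.

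Across the set, 13 of the 17 member peaks were listed for KLF3, 5 were for ΔDL and 1 was for DBD. The shares over all peaks of the table were 63.6%, 55.2% and 22.3%. The ΔDL height was 2-fold or more below that of KLF3 at 4 member peaks (Ctbp1 promoter, Ctbp2 605 bp downstream, upstream Hipk2 and the farther Zeb1 peak), against 14.8% of all peaks, and at least 2-fold higher at 2, against 28.8%. After scaling to common peaks, 12 member peaks were at least 2-fold lower, against 42.9% of all peaks, and none was higher, against 0.397%. The DBD height was 2-fold or more below that of KLF3 at 13 member peaks, against 52.6%, and higher at 1, against 3.27%. The median log2 difference over the 17 peaks was -0.36 for ΔDL and -2.84 for DBD, and over all peaks of the table it was 0.42 and -1.45.

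Scaling moved ΔDL the most. Over the 2334 peaks listed for all 3 constructs, the ΔDL median lay 1.06 above that of KLF3 on the log2 scale and the DBD median 0.42 above. Subtracting these shifts lowered every ΔDL difference by 1.06. A common peak had to be called in ΔDL replicate 1, the list with the fewest tags behind it. The effect of that choice on the shift was not tested. ΔDL was below KLF3 at 12 of the 17 member peaks as deposited and at 16 after scaling, where all peaks of the table gave 9174 and 16604 of 22188. Among the 13 KLF3-listed member peaks it was below at 12 and 13, and the counts over all KLF3-listed peaks were 9033 and 12840 of 14115.

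Peaks were listed for KLF3 because they were high in KLF3, so the comparison within that class needs the rest of the class beside it. Of the 3 member promoter peaks, ΔDL was at least 2-fold lower at 1 and DBD at 3, and the shares over all KLF3-listed promoter peaks were 35.0% and 98.5%. Of the 10 KLF3-listed member peaks outside promoters, ΔDL was at least 2-fold lower at 3 and DBD at 10, against 18.2% and 70.8%. The ΔDL interval lay below 0 at 6 of the 13 KLF3-listed member peaks, against 34.0% of all KLF3-listed peaks, and the DBD interval at 13 of 13, against 79.7%. Among the 4 member peaks not listed for KLF3, the ΔDL interval lay above 0 at 2, against 56.5% of such peaks, and the DBD interval at 1, against 7.49%. With 3, 10 or 4 peaks in a class, 1 peak moves a share by a large step, and none of these counts was tested.

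**Figure D2:**
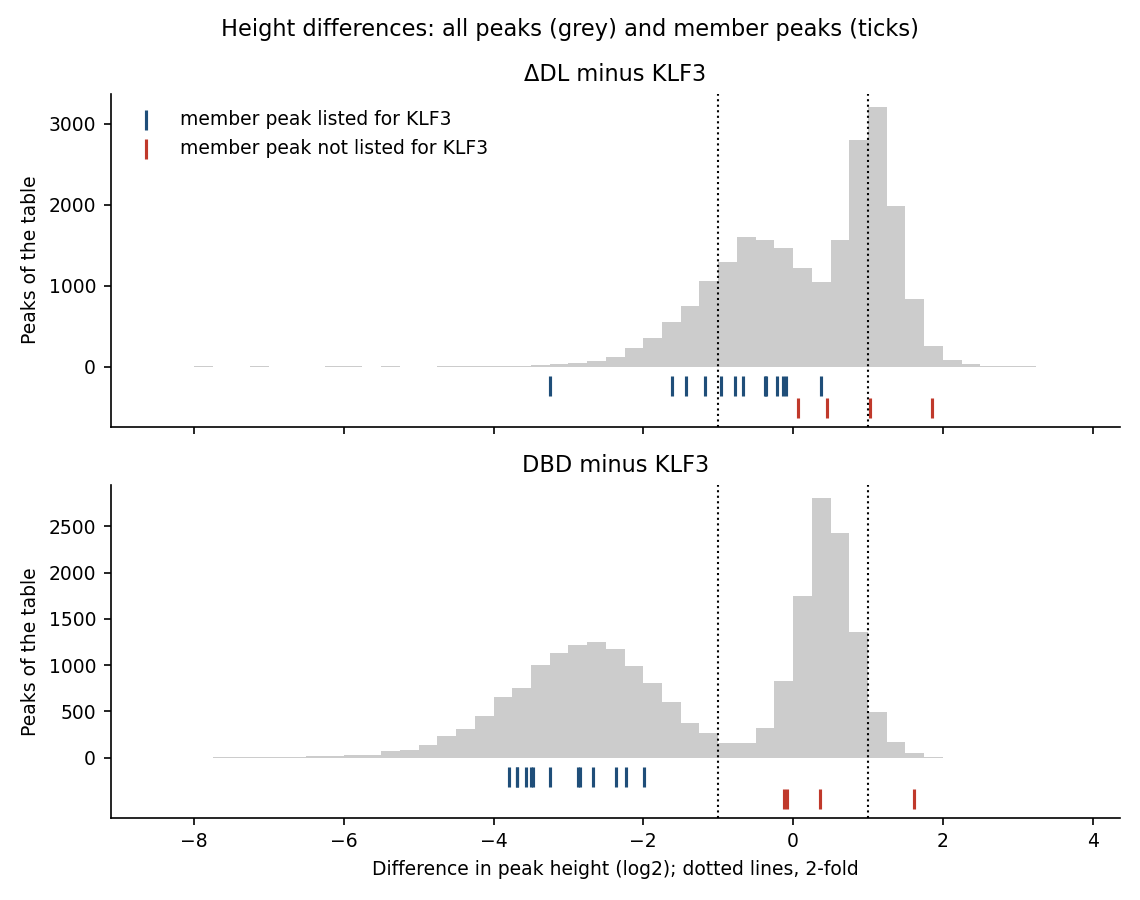
Histogram of the log2 height difference over all 22188 peaks of the table (grey, peaks per bin of 0.25) for ΔDL minus KLF3 (top) and DBD minus KLF3 (bottom), with 1 tick for each of the 17 member peaks. In the DBD panel the 13 KLF3-listed ticks run from -3.79 to -1.99 and the 4 others from -0.12 to 1.62, while in the ΔDL panel they run from -3.25 to 0.37 and from 0.07 to 1.85.

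G+C content varied over the set from 35.0% at the Hipk2 intron 1 peak to 79.5% at the Ctbp1 promoter. The promoter peaks of Ctbp2 and Fhl2 had 63.5% and 67.8%, and the Ctbp2 peak 605 bp downstream 65.0%. The 4 member peaks not listed for KLF3 had between 35.3% and 43.3%, with a median of 39.6%, against 38.0% for all such peaks. The 13 KLF3-listed peaks had a median of 46.8%, against 50.8%. G+C content moves with the ΔDL difference over the table, and its part in the member values was not tested.

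**Figure D3:**
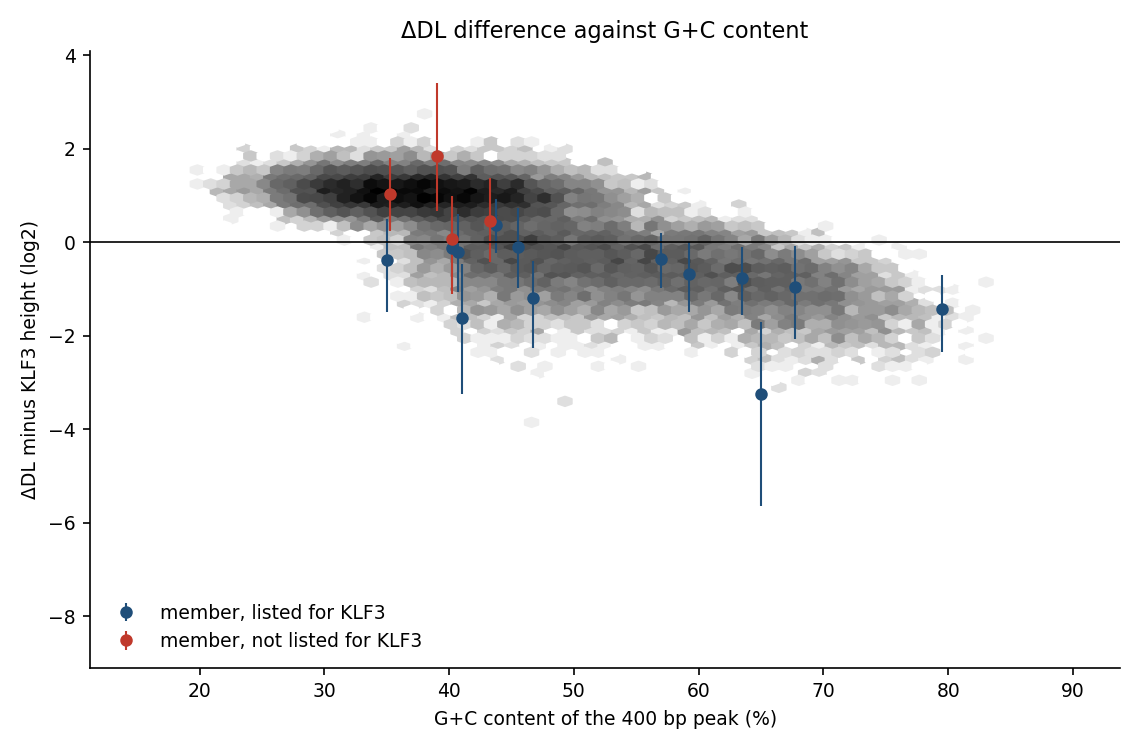
ΔDL minus KLF3 height (log2) against the G+C content (%) of the 400 bp peak, with all peaks of the table as grey density (log colour scale) and the 17 member peaks as points with exact binomial 95% counting intervals. The member peaks not listed for KLF3 lie between 35.3% and 43.3% G+C at 0.07 to 1.85, and the Ctbp2 peak 605 bp downstream stands lowest, at 65.0% and -3.25.

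The replicate lists give the only view of error between experiments. The score of a list peak, in tags per 100 M tags, was higher in KLF3 replicate 1 than in replicate 2 at 12 of the 13 KLF3-listed member peaks, by a median of 0.63 and at most 1.41 on the log2 scale. At the Ctbp1 promoter the KLF3 scores were 403 and 216, and the 1 ΔDL score was 108. At the Ctbp1 intron they were 220 and 199, and the ΔDL score was 166. The ΔDL differences of the deposited heights at 6 of the KLF3-listed peaks, those between -0.38 and 0.37, were smaller than the median gap between the KLF3 replicates. After scaling to common peaks these 6 ran from -1.44 to -0.69, all larger in size than that gap. That follows from the shift itself, and the gap between the KLF3 replicates was not scaled. That gap is measured in the narrower list peaks and runs mostly 1 way, so it is a rough guide to the error of a height in 400 bp.

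Over all lists, the 10 genes had 87 replicate peaks at 51 sites, of which 17 are in the table and 34 are not. KLF3 replicates held 24 and 27 peaks, ΔDL 8 and 19, and DBD 4 and 5. The mean was 25.5 ± 2.12 for KLF3, 13.5 ± 7.78 for ΔDL and 4.50 ± 0.707 for DBD (SD, n = 2 lists). KLF3 lay above both mutants in every list, but the exact two-sided permutation test gave p = 0.333 for each mutant, which is the smallest value that 2 lists against 2 allow. Per 10000 peaks of the list, the member peaks came to 8.96 and 11.3 in KLF3, 4.65 and 5.82 in ΔDL, and 4.37 and 6.17 in DBD. With the 8105 top-scoring peaks of every list, they numbered 4 and 9 in KLF3, 2 and 3 in ΔDL, and 2 and 5 in DBD, and the exact permutation p for DBD was then 0.667. Site by site, both KLF3 replicates held 13 of the 38 sites that either called, both ΔDL replicates 5 of 22, and both DBD replicates 1 of 8. Over the whole lists, 14115 peaks were listed for KLF3, from replicate lists of 26772 and 23872 peaks. For ΔDL 12248 were listed, from 17206 and 32624, and for DBD 4955, from 9156 and 8105. The member counts were not tested against these.

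Depth is given as the tags behind the scores, which are fewer than the mapped reads that the study lists and, for KLF3 and ΔDL, less even between replicates, and the reason was not tested. The lists had 5.46 M and 18.1 M such tags (KLF3), 1.77 M and 10.2 M (ΔDL), and 7.81 M and 8.38 M (DBD). At the mean KLF3 score of each of the 13 KLF3-listed member peaks, ΔDL replicate 1 would hold between 1.86 and 5.46 tags. Its smallest listed peak had 4 tags, a number that 3 of the 13 would reach, so at this depth a missing call in ΔDL replicate 1 says little. In ΔDL replicate 2, where a peak needed 7 tags, all 13 would reach that number, with between 10.8 and 31.7. DBD replicates 1 and 2 would hold between 8.25 and 25.9 tags, and all 13 would reach their smallest listed peaks of 7 and 8. None of the 13 was called in either DBD replicate. The scores of called peaks are themselves chosen for being high, and the input libraries and local background also enter the authors' calls.

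**Figure D4:**
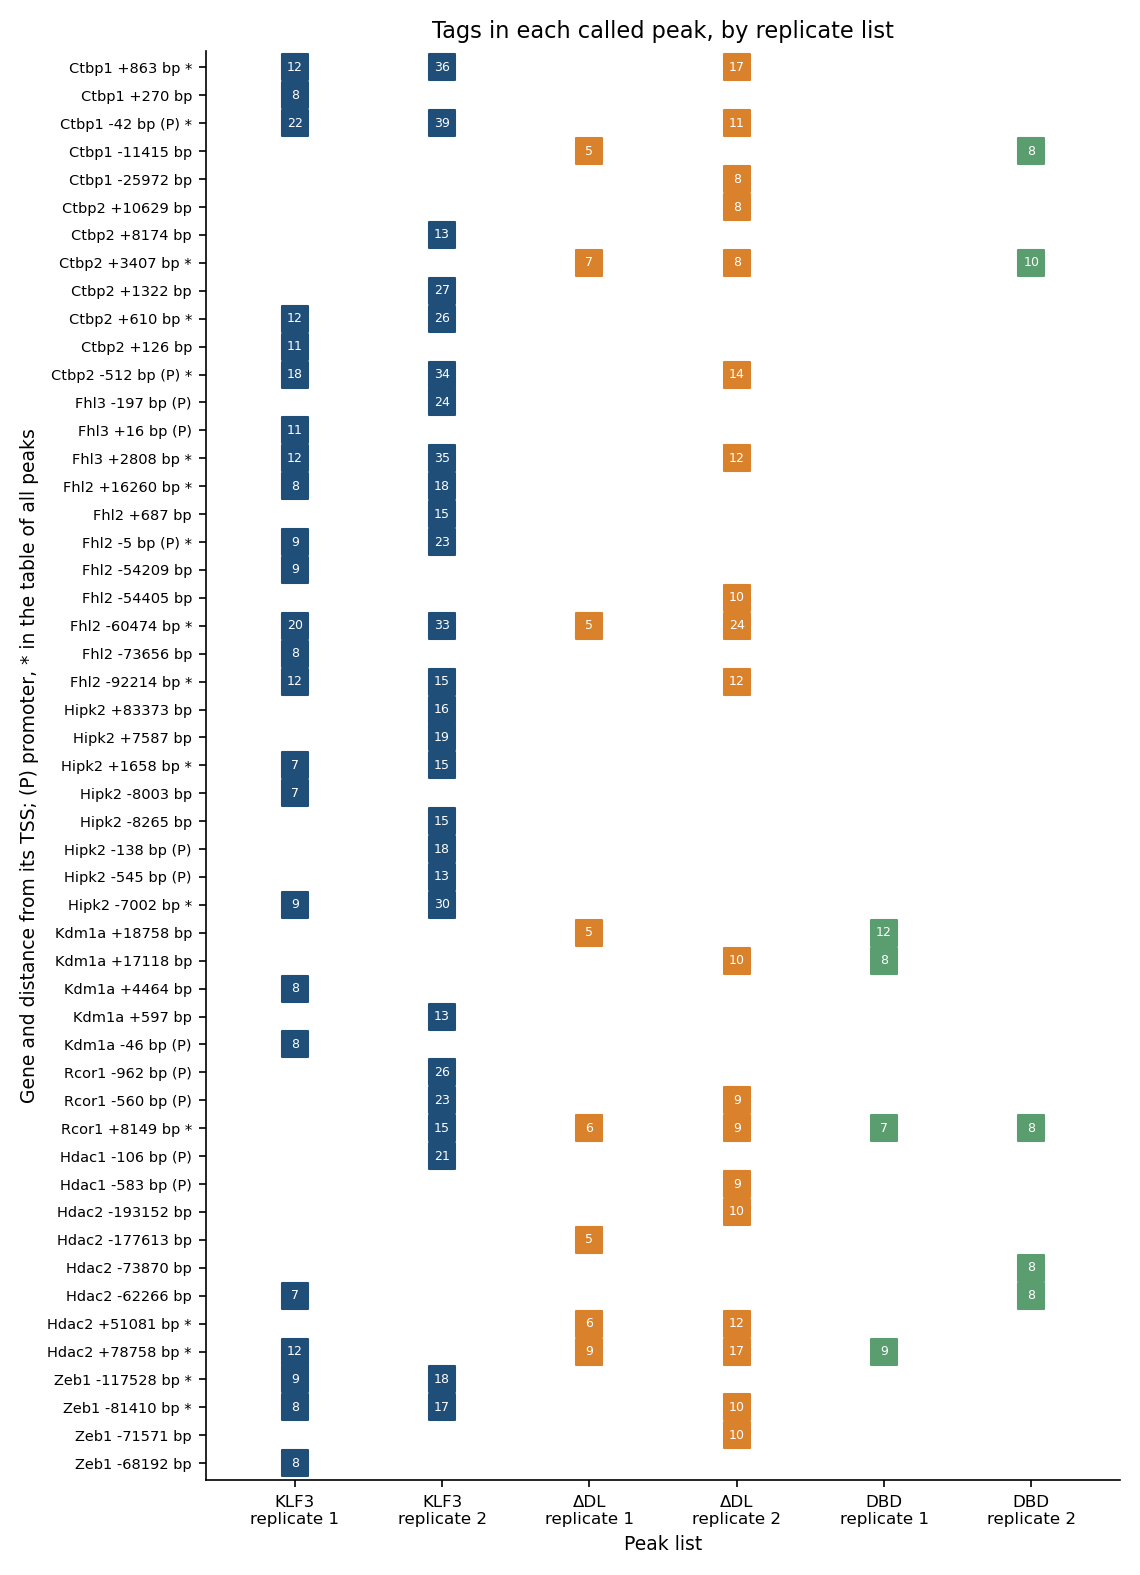
The 51 sites at the 10 genes (rows, with the median distance from the TSS over their list peaks) in the 6 replicate lists (columns). A square marks a called peak and its number gives the tags in it, from 5 to 39; the KLF3 columns hold 24 and 27 squares, the ΔDL columns 8 and 19 and the DBD columns 4 and 5.

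A promoter was taken from 1000 bp upstream to 100 bp downstream of the TSS. By the authors' annotation the KLF3 replicates held 5 and 9 member promoter peaks, ΔDL 0 and 4, and DBD 0 and 0. The member peaks of these lists numbered 24 and 27, 8 and 19, and 4 and 5, and promoter peaks made up 20.03% and 31.0% of the whole KLF3 lists, 7.37% and 15.9% of the ΔDL lists, and 1.59% and 2.80% of the DBD lists. At 8 of the 10 genes, all but Hdac2 and Zeb1, at least 1 KLF3 replicate had a promoter peak. By GENCODE start sites, a promoter peak stood in both KLF3 replicates at 4 of the 10 genes (Ctbp1, Ctbp2, Fhl3 and Fhl2), against 23.2% of 22238 protein-coding genes. In either KLF3 replicate it was 9 of 10, against 37.4%, since a replicate 2 peak at the start of Gm10125 also lies within the Zeb1 promoter window. ΔDL had a promoter peak at 4 of 10, against 26.0%, all in replicate 2 (Ctbp1, Ctbp2, Rcor1 and Hdac1). DBD had none, against 1.97%. The background counts every protein-coding gene, expressed or not, and the expression of the 10 genes was not read here. The share is therefore no test of the set.

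**Figure D5:**
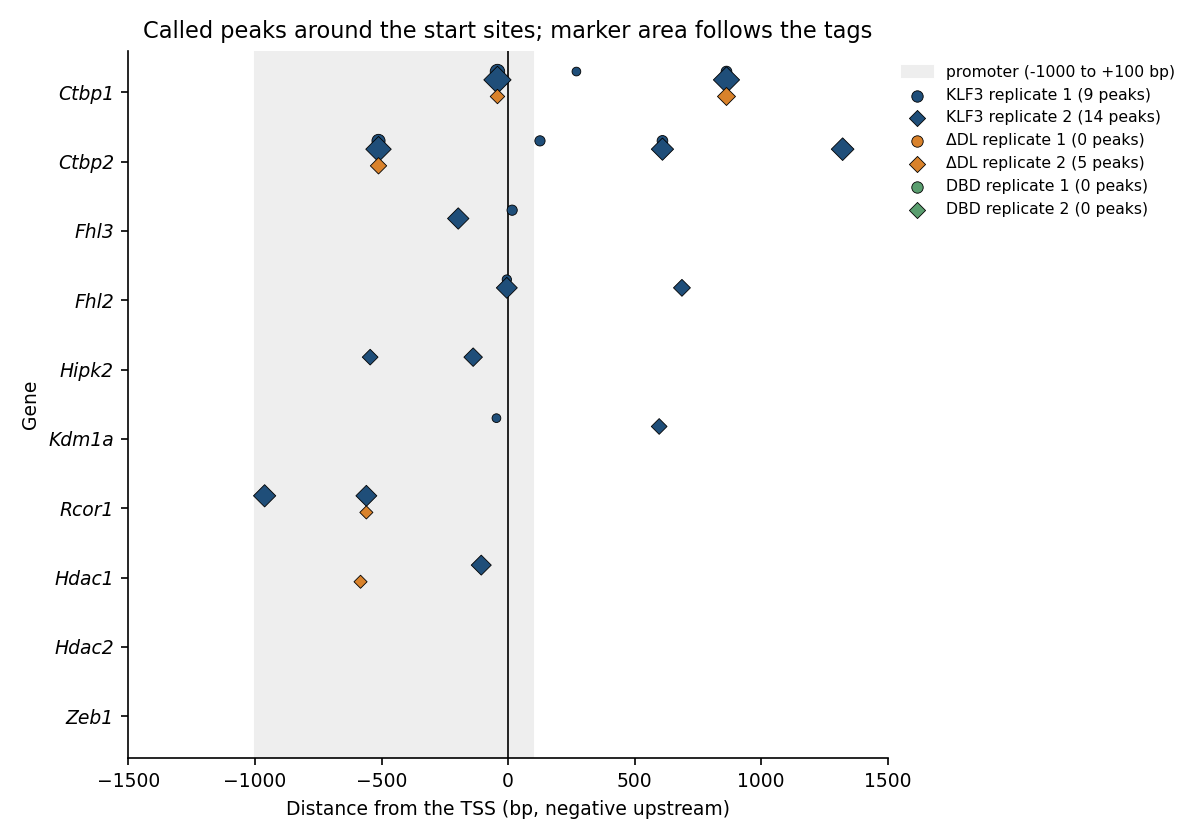
Called peaks within 1500 bp of the TSS of the 10 genes (horizontal axis, bp, negative upstream), by replicate list, with marker area following the tags and the promoter window shaded. KLF3 replicates have 9 and 14 peaks in this range, ΔDL replicate 2 has 5, and ΔDL replicate 1 and both DBD replicates have none; Hdac2 and Zeb1 have none under their own names.

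Other genes of the same pathways were counted in the table from 3 lists. Of 16 CtBP partner genes, 12 had a table peak, 33 peaks in all, and 7 of these were KLF3-listed promoter peaks. The highest of the 7 was at Gse1, a subunit of CoREST-type complexes, with 609 (KLF3), 324 (ΔDL) and 30.5 (DBD) normalized tags. At Rcor3, a paralogue of Rcor1, the values were 380, 119 and 10.9. Hmg20b, which codes for the CoREST subunit BRAF35, had 375, 261 and 49.9. Wiz, a zinc finger partner of the G9a methyltransferase, had 350, 393 and 52.3 and was listed for ΔDL too. ΔDL was at least 2-fold lower at 2 of the 7, against 35.0% of all KLF3-listed promoter peaks, and DBD at 7, against 98.5%.

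Of 28 other corepressor and HDAC complex genes, 20 had a table peak, 58 peaks in all, with 13 KLF3-listed promoter peaks at 12 genes. Mbd2, the methyl-CpG reader of the NuRD complex, had the highest, with 1323 (KLF3), 798 (ΔDL) and 97.0 (DBD) normalized tags. Gatad2a, another NuRD subunit, had 1201, 416 and 77.2. Sap30, of the SIN3 complex, had 549, 402 and 52.7, and the class II deacetylase gene Hdac7 had 416, 425 and 44.9. ΔDL was at least 2-fold lower at 4 of the 13 and DBD at 13, against the same 35.0% and 98.5%. Mbd2, Gatad2a, Sap30 and Hdac7 thus had KLF3 promoter peaks higher than any peak at the 10 genes, as did Gse1 and Hipk3. The promoter peaks named at Rcor3, Hmg20b and Wiz were not higher. Among 6 FHL and HIPK relatives, the only promoter peak was at Hipk3, with 609, 236 and 31.8.

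No promoter peak of these wider lists was listed for DBD, and 47 of the table's 4259 KLF3-listed promoter peaks were. Among the CtBP partners 3 of 33 peaks were listed for DBD, against 22.3% of the table, at Gse1 107504 bp upstream (KLF3 153, ΔDL 302 and DBD 150), in Ehmt1 intron 1 (124, 118 and 114) and in Cdyl intron 1 (78.8, 179 and 134). In the corepressor and HDAC list 8 of 58 were, of which 4 lay far upstream of Tbl1xr1, 2 upstream of Hdac9, 1 in Hdac4 and 1 was assigned to Mbd2 from 737380 bp away. DBD minus KLF3 over these 11 peaks ran from -0.12 in Ehmt1 to 1.28 at a Tbl1xr1 peak 248215 bp upstream, and it was -0.08 at Rcor1.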

How the data were processed

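ChIP-seq with an anti-V5 antibody was available for KLF3, ΔDL and DBD, in 2 replicates each, and each record holds both replicates. Inputs were used by the authors when calling peaks and not otherwise here. The authors aligned reads to mm9 with Bowtie2 2.0.0 (a beta release by the methods) and SAMtools 0.1.18, checked them with FastQC 0.10.1, and called and annotated peaks with HOMER 4.1 (versions per the submitters' processing notes). Peak scores in the deposited lists are a signal, tags in the peak per 100 M tags. The deposited heights are log2 values of tags in 400 bp, which the authors counted over both replicates and normalized to 100 M tags. G+C content is a fraction in the files the authors deposited, and the PhastCons conservation score beside it was not used in a comparison.

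Columns were read in Python 3.11.15 (pandas 2.3.3, numpy 2.4.6, scipy 1.17.1, pysam 0.24.0). List scores are multiples of 1 tag, whole to within 0.141 tag, which gave the tags per peak and the depth of each list. The same interval differed between the table and the merged lists by a median of about 0.3 tag (0.324, 0.301 and 0.282 for KLF3, ΔDL and DBD), so tags from heights are known to about 1 tag. No count model was fitted, since no file holds counts of each replicate at every site. Height ratios have exact binomial 95% intervals and single heights exact Poisson ones. For numbers of list peaks the test was an exact permutation test (two-sided). Peaks joined where they shared at least 1 bp. Sequences and GENCODE start sites came from NCBIM37, which is mm9.

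The text names all members and their table peaks. Of each wider list it names up to 4 KLF3-listed promoter peaks with the greatest KLF3 height and the peaks listed for DBD. The members and lists were chosen with earlier results of these data known.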

Additional observations from a re-analysis of the deposited data

How the results depend on the processing

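Scaling the heights to common peaks moved the count of member peaks at least 2-fold lower in ΔDL from 4 to 12, the count higher from 2 to 0, and the ΔDL median from -0.36 to -1.42. Over all 22188 peaks the counts moved from 3293 to 9515 and from 6393 to 88. It turned the Hdac2 peak 78759 bp downstream from 1.03 to -0.03, which follows from the shift itself. A 1.5-fold limit gave 7 peaks lower in ΔDL, and a 3-fold limit 2 lower and 1 higher. Among KLF3-listed member peaks alone none was 2-fold higher in ΔDL or DBD (0 and 0). All KLF3-listed peaks of the table gave 1549 and 26 of 14115. With at least 20 tags the member counts higher in ΔDL and DBD were 1 and 0. The upper 50% of each list by score left 8 peaks called in both KLF3 replicates, 2 in ΔDL and 0 in DBD. Shares over all peaks were not computed for the 1.5-fold, 3-fold, 20-tag and upper 50% settings. Without 1 replicate, 14 to 14 of the 17 table peaks were called for KLF3, 5 to 11 for ΔDL (11 without replicate 1) and 2 to 2 for DBD. The 34 sites outside the table do not enter these counts. Without 1 replicate list, the excess of KLF3 member peaks was 6.5 (without ΔDL replicate 1) to 17.5 over ΔDL, against 12, and 19.5 to 22.5 over DBD, against 21. Counting only ACACCC or CCACCC gave 6 peaks with a core, again without a share over all peaks.

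Requiring both replicates within 400 bp of a table peak gave 13, 5 and 1 listed peaks, as in the table. This setting was added after seeing the data and covered only the 17 member peaks of the table. Sites outside the table, such as the Fhl3 promoter, could not enter, so the count does not show what a looser overlap rule would add. The 200 bp overlap was not run, since list peaks are shorter than that. No paired analysis was possible because a height combines both replicates. The count lower in DBD stayed within 1.5 times of 13 under every alternative. Depth limits ΔDL most, where 1 tag is worth 8.45 normalized tags.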
